A study of Rattus norvegicus with 23 samples.

Results

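The genes described here are the 5 CC chemokines that lie next to each other on rat chromosome 10: Ccl2, Ccl7, Ccl11, Ccl12 and Ccl1. They were chosen by name, as the spots of the array whose gene name was one of these 5, with earlier results of these data known. All 5 were measured, each by 1 probe, and all passed the filter on dim probes, so that they are 5 of the 23029 genes tested. The 5 probes were printed on 15 spots of each array, 10 for Ccl2, 2 for Ccl7 and 1 for each other gene.

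RNA came from the accessory lobe of the lung of male F344 rats, whose age is given as 19 months in all groups. Exposed rats breathed a nanostructured aerosol of titanium dioxide (TiO2, 10 mg/m3) through the nose only, for 6 hours a day and 5 days a week during 4 weeks, and control rats breathed filtered air in the same system. Rats were killed at the end of exposure (D0) or 28 days later (D28). With 1 rat per array, there were 6 control and 5 exposed arrays on D0, and 6 of each on D28. The sixth exposed rat of D0 was not analysed here. A label (the source name) of the 6 exposed D28 arrays gives day 0, and their titles and descriptions give day 28, which was followed. The 23 arrays lay on 5 slides of 1 to 7 arrays, between 69.5% and 77.9% of their spots were well above background, and the 75th percentile of the processed signal lay between 1383 and 3470. The 7 markers of lung epithelium, among them the surfactant genes Sftpc, Sftpb and Sftpa1, were well above background on all arrays. The sample is a whole lobe, in which fewer cells of a type and less RNA per cell cannot be told apart.

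Chemokines are small secreted proteins that bind to receptors on leukocytes and guide them along a gradient. The CC group is named after a pair of neighbouring cysteines, and its members in this cluster mainly draw monocytes, eosinophils and some T cells. Ccl2 and Ccl12 act through Ccr2, the receptor that brings monocytes out of bone marrow and into tissue. Ccl7 binds Ccr1, Ccr2 and Ccr3, Ccl11 (eotaxin) binds Ccr3 of eosinophils, and Ccl1 binds Ccr8 of some T cells and macrophages. In the lung, epithelial cells, macrophages, fibroblasts and endothelium are all known to make some of them.

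Such genes arose by duplication, so the first question was whether the probes can tell them apart. The first 30 of the 60 bases of each probe are shown for that purpose, 5′ to 3′ as the array files give them and in the order of the genes.
Ccl2: tttatttctctgtgaatcctggttcaacac
Ccl7: ttagacatgaaaacttcaactccaaagccc
Ccl11: ctttaacgtgccatcatgccaagccagaat
Ccl12: ccttccccatggacagtgcgatagttattt
Ccl1: tagagaaagctgcgccttaactaacaccac
The longest run of bases that any pair of whole probes shared was 5 to 8 bases, so no probe repeats a long stretch of another. The probes begin at different positions of their transcripts, and none was compared with the transcripts of the other genes. Whether they tell the genes apart is therefore not settled by these runs. In the rn4 build of the array files, the probes lay on chr10:70257919-70257978 for Ccl2, chr10:70268674-70268733 for Ccl7, chr10:70283679-70283738 for Ccl11 and chr10:70322447-70322506 for Ccl12, all on the plus strand, and on chr10:70380681-70380740 on the minus strand for Ccl1. First and last probe were thus at the ends of a stretch of 122.8 kb. Each probe was designed to a transcript of its gene and so lies in exons, and whether these bases are coding was not determined. In the RefSeq gene table of the GRCr8 assembly the 5 genes follow one another with no other protein-coding gene between them, flanked by Rpl35al3 and Tmem132e.

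The RefSeq promoter table of GRCr8 held 3 of the 5 genes, Ccl7, Ccl12 and Ccl1. The annotated start of Ccl1 falls on ATG, so its window was not used. The 250 bases before the start of Ccl7 (chr10:67513845-67514094, plus strand) and of Ccl12 (chr10:67567626-67567875, plus strand) are shown because both genes were over-expressed on D0. Capitals mark matches to an AP-1 motif (TGANTCA, both strands), to the NF-kB motif (both strands) and to the TATA box (TATAAA, plus strand).
Ccl7: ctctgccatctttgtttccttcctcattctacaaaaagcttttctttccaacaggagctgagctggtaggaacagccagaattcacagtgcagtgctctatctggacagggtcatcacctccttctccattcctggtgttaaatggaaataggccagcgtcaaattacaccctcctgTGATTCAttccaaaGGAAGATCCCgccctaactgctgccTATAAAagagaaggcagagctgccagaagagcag
Ccl12: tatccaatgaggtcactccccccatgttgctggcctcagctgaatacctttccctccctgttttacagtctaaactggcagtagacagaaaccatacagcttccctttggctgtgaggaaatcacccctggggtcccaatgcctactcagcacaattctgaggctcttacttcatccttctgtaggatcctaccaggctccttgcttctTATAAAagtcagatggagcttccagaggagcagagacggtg
Ccl7 held an AP-1 match (TGATTCA) at -73 to -67 from the start, an NF-kB match on the minus strand at -59 to -50 and a TATA box at -34 to -29, with no overlap between them. Ccl12 held a TATA box at -41 to -36 and no match to the other motifs. Of 33469 promoters of this length, 6.34% held the AP-1 motif, 6.33% the NF-kB motif and 8.06% the TATA box. The longest run shared by the promoters of Ccl7 and Ccl12 was 8 bases. A match is a description of the letters, and no binding was measured.

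In all, 4 of the 5 genes were over-expressed in exposed lungs on D0: Ccl1, Ccl7, Ccl12 and Ccl2, with fold changes (FC) from 2.76 to 4.97. Ccl11 was not among them, with a FC of 0.795. A gene was called when its adjusted p in limma was below 0.05 and its FC, up or down, reached 1.5, and 1.79% of all genes were called on D0 (1.09% of all genes as higher in exposed lungs). The median log2 FC was 1.91 over the 5 genes and 0.00 over all genes. All levels below are log2 of the quantile-normalized signal of the gene's own probe, which cannot be set against the level of another probe, and are given as mean ± SD.

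Ccl7, the ligand of several monocyte and eosinophil receptors, had signals of 6.70 to 7.81 in the 6 control lungs of D0 (median 7.49). In the 5 exposed lungs its signals were 9.65, 9.72, 9.69, 8.64 and 9.31 from replicate 1 to 5. The groups did not overlap, and 4 of the 5 exposed lungs lay close together with replicate 4 below them. The mean was 7.41 ± 0.41 (n = 6) in control and 9.40 ± 0.46 (n = 5) in exposed lungs, which makes a log2 FC of 1.99 (SE, the standard error, 0.30, limma adjusted p = 0.000625), or 3.98-fold with a 95% interval of 2.59 to 6.12.

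Ccl2, the main attractant of monocytes, had signals of 9.97 to 11.05 in the control lungs of D0 (median 10.27). In the exposed lungs its signals were 11.80, 11.98, 12.32, 11.13 and 11.84 from replicate 1 to 5. Here too every exposed lung was above every control lung, but the lowest exposed lung, replicate 4, was only just above the highest control lung, replicate 2. The means were 10.35 ± 0.41 (n = 6) and 11.81 ± 0.43 (n = 5), with a log2 FC of 1.46 (SE 0.29, limma adjusted p = 0.00657), or 2.76-fold (1.81 to 4.21).

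Ccl12, which shares the receptor Ccr2 with Ccl2, had signals of 6.02 to 7.60 in the control lungs of D0 (median 6.69) and of 8.61, 8.86, 8.92, 9.56 and 7.40 in the exposed lungs, replicate 1 to 5. Exposed replicate 5 lay within the control range and the other 4 above it. The means were 6.76 ± 0.68 (n = 6) and 8.67 ± 0.79 (n = 5), with a log2 FC of 1.91 (SE 0.48, limma adjusted p = 0.0303), or 3.76-fold (1.89 to 7.45). The call was the least firm on this day: it was lost in 8 of the 23 fits that left out 1 array, those without control replicate 3, 4, 5 or 6 of D0 and without exposed replicate 1, 2, 3 or 4 of D0, where the log2 FC was between 1.69 and 1.95 and the adjusted p between 0.0508 and 0.10.

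Ccl1, the ligand of Ccr8, had signals of 3.46 to 5.19 in the control lungs of D0 (median 4.10), where it was well above background on 4 of 6 arrays. In the exposed lungs it was well above background on all 5, at 6.84, 6.88, 6.56, 7.34 and 4.92 from replicate 1 to 5. Replicate 5 again lay within the control range, and the other 4 were above all controls. The means were 4.20 ± 0.56 (n = 6) and 6.51 ± 0.93 (n = 5), with a log2 FC of 2.31 (SE 0.38, limma adjusted p = 0.00105), or 4.97-fold (2.89 to 8.53). For a signal so close to background the size depends on how background is handled: on D0 the log2 FC was 0.90 with normexp background correction and 1.25 in the table of all arrays that the authors deposited, which has no background correction, and the gene was called with both.

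Ccl11, the eosinophil attractant, was the one gene of the cluster that was not higher in exposed lungs. Its signals were 8.06 to 8.84 in the control lungs of D0 (median 8.33) and 8.21, 8.13, 8.08, 7.99 and 7.85 in the exposed lungs. The groups overlapped, with 2 exposed lungs below all controls, and the exposed values spread over the narrowest range of any gene and group. The means were 8.38 ± 0.28 (n = 6) and 8.05 ± 0.14 (n = 5), with a log2 FC of -0.33 (SE 0.15, unadjusted p = 0.0332 and adjusted p = 0.331 in limma) and a 95% interval from -0.63 to -0.03. The interval of Ccl11 did not reach those of the other 4 genes, the lowest of which began at 0.85. A test of this difference between genes was not run.

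**Figure D1:**
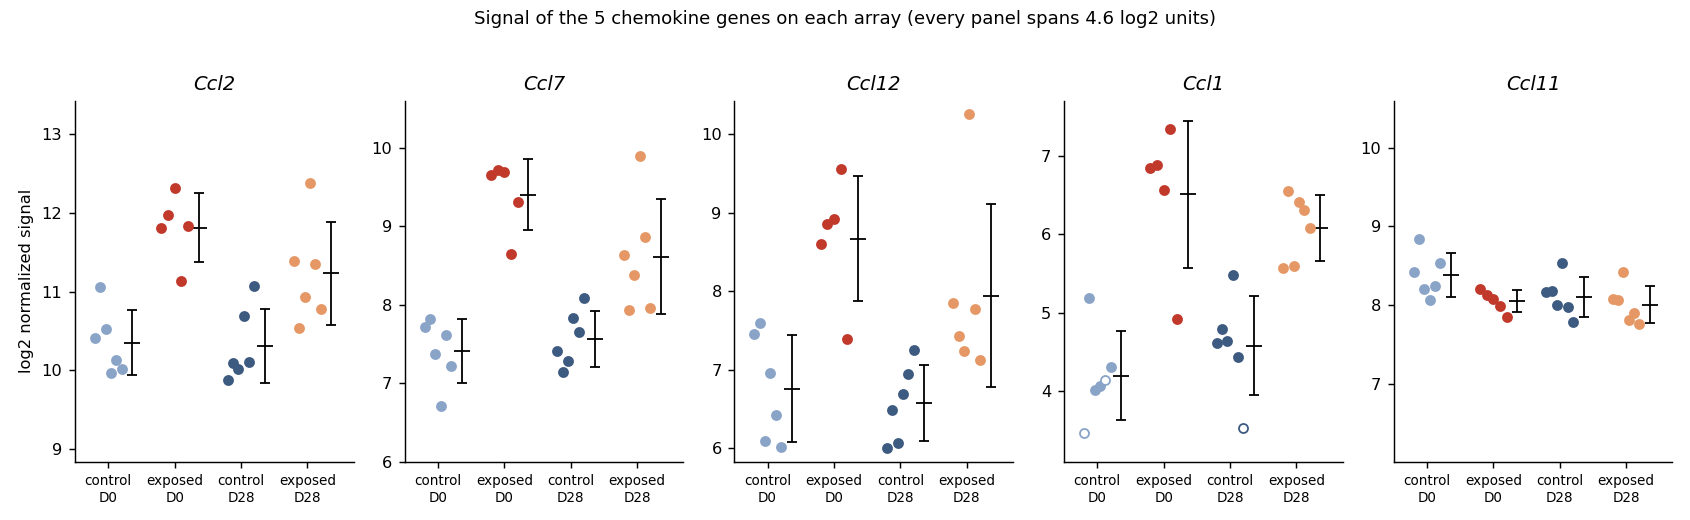
Log2 normalized signal (vertical axis, a range of the same width in every panel) of each gene on each array, by group (horizontal axis). Points are rats in the order of the replicate numbers, open points were not well above background, and the black mark with bars is the mean ± SD. Exposed lungs of D0 lie above all control lungs of D0 for Ccl2 and Ccl7, with 1 exposed lung inside the control range for Ccl12 and Ccl1, and Ccl11 stays between 7.76 and 8.84 in all groups.

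No overlap between the groups on D0, with all exposed lungs higher, was found for 2 of the 5 genes (Ccl2 and Ccl7), and for 1.94% of all genes. The direction held within slides: on the 4 slides with both groups of D0, exposed minus control was above 0 on all 4 for Ccl1 (1.66 to 3.54), Ccl2 (0.75 to 2.31), Ccl7 (0.97 to 2.48) and Ccl12 (1.00 to 2.90), and below 0 on all 4 for Ccl11 (-0.64 to -0.14). Each of these slide values rests on 1 or 2 arrays per group.

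On D28, 28 days after the last exposure, the same 4 genes had higher means in exposed lungs, but Ccl1 alone was called, with 0.756% of all genes called on that day (0.486% as higher). The median log2 FC was 1.04 over the 5 genes and -0.01 over all genes.

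Ccl1 had signals of 3.53 to 5.48 in the control lungs of D28 (median 4.62, 5 of 6 arrays well above background) and of 5.56 to 6.55 in the exposed lungs (median 6.19). The groups did not overlap, although the gap between the highest control and the lowest exposed lung was small. That highest control, replicate 4, was alone on its slide and was the 1 array read with the later software version. The log2 FC was 1.68 without it and 1.79 with the slide as a block (limma adjusted p = 0.00987 for the block). The means were 4.58 ± 0.63 (n = 6) and 6.08 ± 0.42 (n = 6), with a log2 FC of 1.504 (SE 0.36, limma adjusted p = 0.0386), or 2.84-fold (1.69 to 4.75). No overlap with exposed lungs higher was found for 0.682% of all genes on this day. The call was lost with normexp correction (log2 FC 0.51, adjusted p = 0.0567), when the arrays of D28 were fitted alone (adjusted p = 0.0647), with array weights (adjusted p = 0.0664) and in 12 of the 23 fits that left out 1 array, where the adjusted p was 0.0501 to 0.0814. These were the fits without control replicate 3 or 5 of D0, without control replicate 1, 2, 3, 5 or 6 of D28 and without exposed replicate 1, 2, 4, 5 or 6 of D28. In the deposited table it was called with a log2 FC of 0.78 (adjusted p = 0.0285).

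Ccl12 had signals of 6.01 to 7.26 in the control lungs of D28 (median 6.59) and of 7.13 to 10.25 in the exposed lungs (median 7.60). In the group, 5 exposed lungs lay between 7.13 and 7.84, and replicate 4 stood well above them at 10.25. The means were 6.58 ± 0.49 and 7.94 ± 1.17 (n = 6 each), with a log2 FC of 1.37 (SE 0.45, limma adjusted p = 0.176). Without exposed replicate 4 of D28 the log2 FC was 0.90 (adjusted p = 0.284).

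Ccl7 had signals of 7.14 to 8.09 in the control lungs of D28 (median 7.53) and of 7.93 to 9.89 in the exposed lungs (median 8.51), and 4 of the 6 exposed lungs were above all controls. The means were 7.56 ± 0.36 and 8.61 ± 0.73 (n = 6 each), with a log2 FC of 1.04 (SE 0.28, limma adjusted p = 0.0754). This was near the threshold from the other side: the gene was called when only probes well above background were kept (adjusted p = 0.0442), with an intensity trend and robust estimation (adjusted p = 0.0458) and without exposed replicate 2 of D28 (adjusted p = 0.0480). Without exposed replicate 4 of D28, the highest lung of the group for this gene too, the log2 FC was 0.79 (adjusted p = 0.138).

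Ccl2 had signals of 9.88 to 11.07 in the control lungs of D28 (median 10.10) and of 10.54 to 12.39 in the exposed lungs (median 11.14). The groups overlapped, since the controls reached up to 11.07 in replicate 6. The means were 10.31 ± 0.47 and 11.23 ± 0.65 (n = 6 each), with a log2 FC of 0.92 (SE 0.28, limma adjusted p = 0.123), and of 0.69 (adjusted p = 0.237) without exposed replicate 4 of D28.

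Ccl11 had signals of 7.78 to 8.53 in the control lungs of D28 (median 8.08) and of 7.76 to 8.41 in the exposed lungs (median 7.98). The ranges were nearly the same. The means were 8.11 ± 0.25 and 8.005 ± 0.24 (n = 6 each), with a log2 FC of -0.10 (SE 0.14, limma adjusted p = 0.884) and a 95% interval from -0.39 to 0.19, and of 0.01 with the slide as a block.

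**Figure D2:**
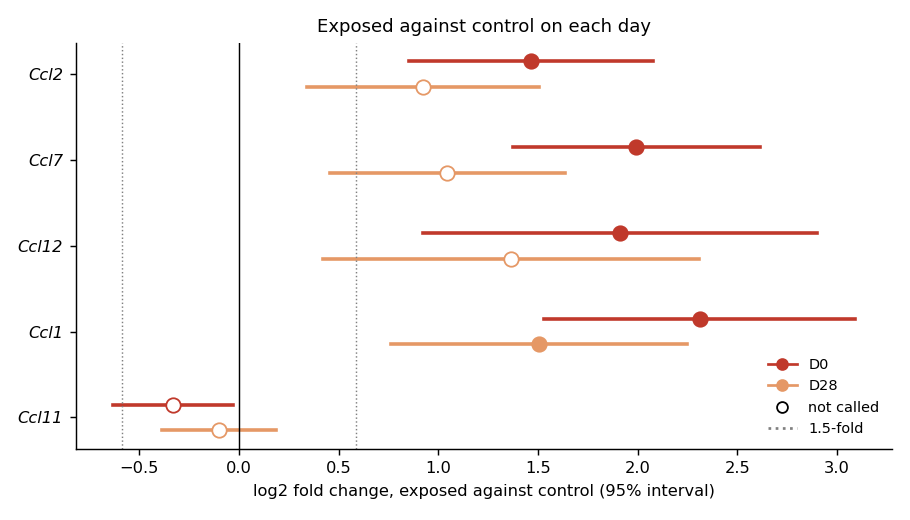
Log2 FC of exposed against control lungs (horizontal axis) for each gene (vertical axis) on D0 and D28, as points with 95% intervals from limma. Filled points were called and dotted lines mark the 1.5-fold limit. The points of D28 lie nearer to 0 than those of D0 for all 5 genes, with overlapping intervals.

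Within slides, 3 slides held both groups of D28. Exposed minus control was above 0 on all 3 for Ccl1 (1.43 to 3.02) and Ccl12 (0.17 to 2.41), and on 2 of 3 for Ccl2 (-0.53 to 1.53), Ccl7 (-0.16 to 1.72) and Ccl11 (-0.31 to 0.28). The slide on which Ccl2 and Ccl7 were lower held 1 array of each group of D28.

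**Figure D3:**
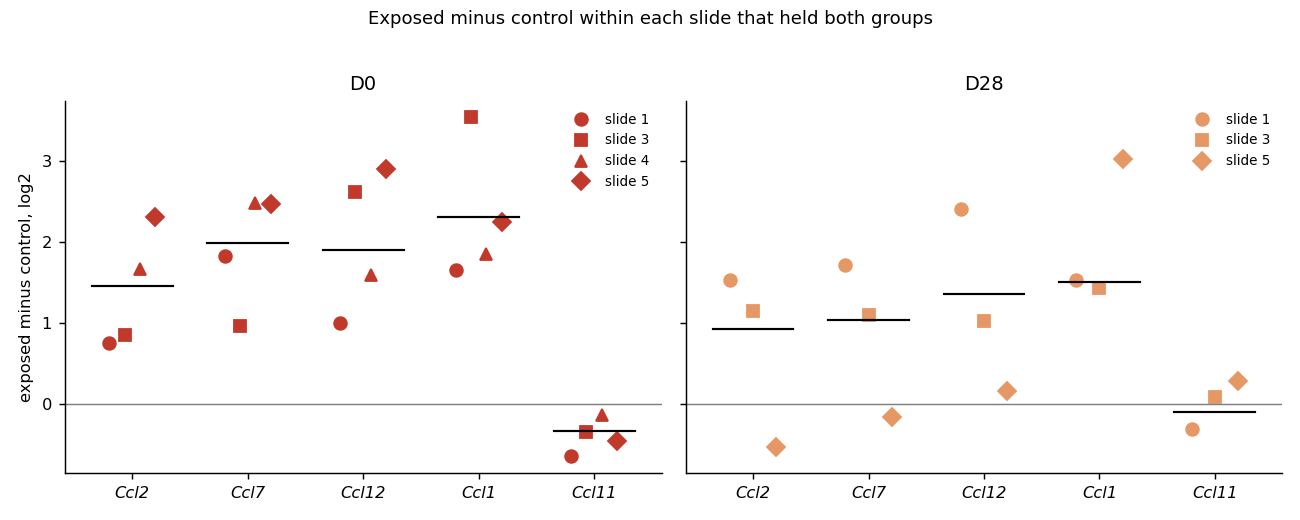
Exposed minus control in log2 signal (vertical axis) within each slide that held both groups of a day, for each gene (horizontal axis). Symbols are slides and the black line is the log2 FC over all arrays. On D0 every slide lies above 0 for Ccl2, Ccl7, Ccl12 and Ccl1 and below 0 for Ccl11, and on D28 slide 5 lies below 0 for Ccl2 and Ccl7.

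Whether the effect of exposure differed between the days was tested as the difference of both effects in the same fit. No gene of the cluster passed, where 7 of all genes (0.0304%) did, and Ccl7 alone had an unadjusted p below 0.05, as did 3.44% of all genes. The effect was smaller on D28 by 0.95 for Ccl7 (SE 0.41, unadjusted p = 0.0317 and adjusted p = 0.9998 in limma, 95% interval of the difference from -1.80 to -0.09). The difference was -0.81 for Ccl1 (-1.89 to 0.27), -0.54 for Ccl2 (-1.39 to 0.30), -0.54 for Ccl12 (-1.91 to 0.82) and 0.23 for Ccl11 (-0.19 to 0.65). These 4 intervals include 0 and, for Ccl1, Ccl2 and Ccl12, reach decreases as large as the effect of D28 itself.

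The levels of each group can also be set side by side, with the arrays that the comparisons above used. For Ccl1, Ccl2, Ccl7 and Ccl12 the exposed lungs of D0 had the highest mean, the exposed lungs of D28 came next, and the control groups were lowest. Of these 4 genes, Ccl1 alone differed past the threshold between exposed and control lungs of D28, and exposed lungs of D28 were not tested against control lungs of D0. Exposed lungs of D28 were below those of D0 by 0.42 for Ccl1, 0.58 for Ccl2, 0.79 for Ccl7 and 0.73 for Ccl12 on the log2 scale, and none of the 5 genes was called (0.352% of all genes were). Control lungs of D28 minus those of D0 gave 0.38 for Ccl1, -0.04 for Ccl2, 0.16 for Ccl7, -0.28 for Ccl11 and -0.18 for Ccl12, again with none called (0.608% of all genes). For Ccl11 the order was control D0, control D28, exposed D0 and exposed D28, and neither the control groups nor the exposed groups differed past the threshold from each other. Control lungs of D28 were not tested against exposed lungs of D0. Averaged over the days, the effect of exposure was called for Ccl1 (1.91, 95% interval 1.37 to 2.45, and 0.71 with normexp background correction), Ccl2 (1.19, 0.77 to 1.62), Ccl7 (1.52, 1.09 to 1.95) and Ccl12 (1.64, 0.95 to 2.32) and not for Ccl11 (-0.22, -0.42 to -0.01, limma adjusted p = 0.267), while 1.87% of all genes were called.

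How the genes varied from rat to rat was described by the deviation of each array from the mean of its group. Over the 23 arrays, the deviations of Ccl2 and Ccl7 correlated with a Pearson's r of 0.90, and of 0.84 without exposed replicate 4 of D28. Those of Ccl12 correlated less with Ccl2 (r = 0.60) and Ccl7 (r = 0.59), and without that array r was 0.34 and 0.26. Ccl1 had an r of -0.04 with Ccl2, -0.03 with Ccl7 and 0.33 with Ccl12, and its highest was 0.46 with Ccl11 (0.50 without that array). Ccl11 had an r between -0.04 and 0.08 with the other 3 genes, and between 0.15 and 0.28 without that array. The exposed lungs of D0 show this in single rats: replicate 4 had the highest Ccl1 and Ccl12 signals of its group and the lowest Ccl2 and Ccl7 signals, whereas replicate 5 had the lowest Ccl1 and Ccl12 signals and a Ccl2 signal near the group's mean. Replicate 4 was the dimmest array of its group (75th percentile 1445). Before quantile normalization its Ccl1 (114) and Ccl12 (529) signals were not the highest, which were 152 and 612 in replicate 2. Its Ccl2 and Ccl7 signals were the lowest either way. All probes of an array share its RNA, labelling and normalization. The SD was 0.50 for Ccl2 and 0.51 for Ccl7 between rats of a group, and 0.04 and 0.11 among their spots on 1 array, which share the same RNA, labelling and hybridisation.

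**Figure D4:**
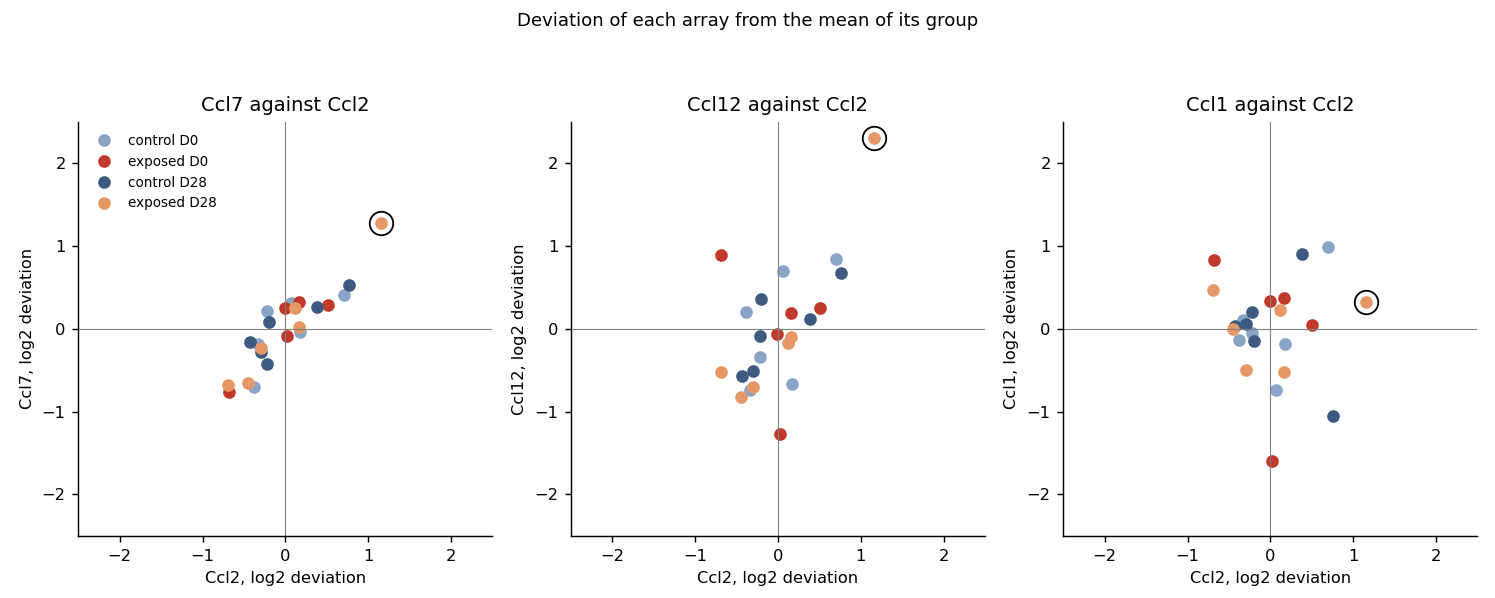
Deviation of each array from the mean of its group (log2) for Ccl7, Ccl12 and Ccl1 (vertical axes) against Ccl2 (horizontal axes), with points coloured by group and exposed replicate 4 of D28 ringed. Ccl7 lies along a line with Ccl2 (r = 0.90), Ccl12 less so (r = 0.60), and Ccl1 shows no such line (r = -0.04).

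Over the 23 arrays, differences between groups included, Ccl2 and Ccl7 were most like each other (Pearson's r = 0.96), and Ccl12 had an r of 0.84 with both. Outside the cluster, the 3 genes whose signal was most like that of each member were named by the same measure. For Ccl2 they were LOC102556856 (r = 0.91), the epithelial transcription factor gene Elf3 (0.88) and Cxcl2, an attractant of neutrophils (0.87). For Ccl7 they were LOC102556856 (0.92), the serine protease gene Prss30 (0.91) and Bpifb1, which codes for a secreted airway protein (0.91). Of the genes outside the cluster, the transcript LOC102556856 had the highest r with both, and it was itself called on D0 (log2 FC 1.32, limma adjusted p = 0.00132). For Ccl12 they were the transporter gene Slc16a6 (0.84), Itih4 (0.83) and LOC102555378 (0.82), and for Ccl1 the transporter gene Slc49a3 (0.89), the phospholipase gene Ddhd1 (0.89) and LOC689757 (0.89). For Ccl11 they were Med6 (0.82), Abhd14a (0.79) and Hrnr (0.77), none of which was called on either day.

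Receptors were mostly not called where their ligands were. Of 8 receptors and decoy receptors, all measured, 1 was called on D0, as lower, and none on D28, with median log2 FC of 0.19 and 0.04. Of all genes, 1.79% were called on D0 and 0.756% on D28. Ccr2, the receptor of Ccl2, Ccl7 and Ccl12, had a mean of 5.84 in control and 6.12 in exposed lungs of D0 (log2 FC 0.28, limma adjusted p = 0.741). Ccr3, the receptor of Ccl11 and Ccl7, was at 5.96 and 5.46 (log2 FC -0.50, adjusted p = 0.296), and Ccr8, the receptor of Ccl1, was not well above background on any array of D0. The receptor called on D0 was Ackr4, which takes up Ccl19, Ccl21 and Ccl25 and not the chemokines of this cluster: its mean was 8.96 ± 0.23 (n = 6) in control and 8.09 ± 0.32 (n = 5) in exposed lungs (log2 FC -0.87, limma adjusted p = 0.0259). On D28 Ackr4 had a log2 FC of -0.12 (limma adjusted p = 0.911), Ccr1 of 0.16 (adjusted p = 0.877) and Ackr2 of 0.14 (adjusted p = 0.931).

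Some of the other chemokine ligands were called, set beside 1.79% of all genes on D0 and 0.756% on D28. Of 15 other CC ligands none was called on D0 (median log2 FC -0.18), where the largest values were 0.76 for Ccl28 (limma adjusted p = 0.148) and 0.68 for Ccl17 (adjusted p = 0.132). Ccl3 passed the adjusted p on D0 with a log2 FC of 0.48, below the FC limit (limma adjusted p = 0.0272), and 7 of the 15 were higher. On D28 Ccl28 was called, but it was well above background on 1 of 6 exposed and no control array, which leaves a bound of at least 1.58-fold (limma adjusted p = 0.0364). Of 16 CXC, XC and CX3C ligands, Cxcl6 and Cx3cl1 were called on D0 and none on D28, with median log2 FC of 0.39 and 0.05. On D0, 12 of the 16 were higher in exposed lungs, and 10 had an unadjusted limma p below 0.05. The largest values not called on D0 were 1.41 for Cxcl11 (limma adjusted p = 0.215), 1.17 for Cxcl2 (adjusted p = 0.0692) and 1.01 for Cxcl10 (adjusted p = 0.323). Cxcl6, an attractant of neutrophils, was well above background on no control array and on 4 of 5 exposed arrays of D0, at least 2.23-fold higher (limma adjusted p = 0.0204). Cx3cl1, the ligand of the monocyte receptor Cx3cr1, rose from 12.20 ± 0.16 (n = 6) to 13.04 ± 0.21 (n = 5), a log2 FC of 0.84 (limma adjusted p = 0.00344). On D28 the largest values of this list were 0.92 for Cxcl10 (adjusted p = 0.404) and 0.82 for Cxcl11 (adjusted p = 0.619), both interferon-inducible.

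**Figure D5:**
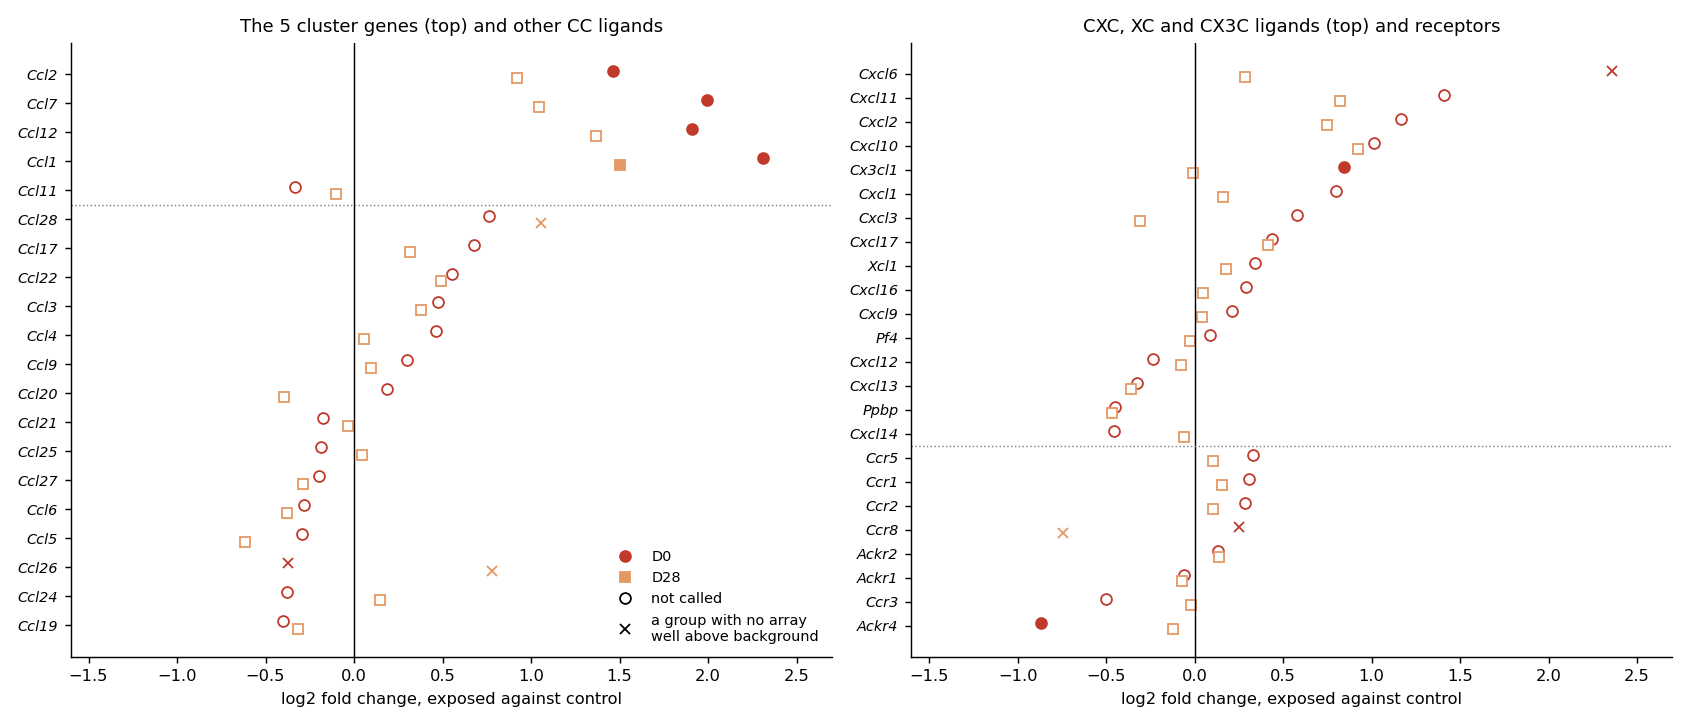
Log2 FC of exposed against control lungs (horizontal axes) for the 5 genes of the cluster, 15 other CC ligands, 16 CXC, XC and CX3C ligands and 8 receptors (vertical axes) on D0 (red) and D28 (orange). Filled points were called, and crosses are fitted values where 1 of the groups compared had no array well above background. Ccl1, Ccl7, Ccl12 and Ccl2 lie at 1.46 to 2.31 on D0, and the receptors between -0.87 and 0.33.

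Among 21 genes for cytokines known to induce these chemokines and for their receptors, Tnf alone was called. For this list and the next ones, the shares of all genes called were 1.79% on D0 and 0.756% on D28. Tnf, a cytokine of macrophages that induces Ccl2 in many cells, had a mean of 7.20 ± 0.41 (n = 6) in control and 8.25 ± 0.33 (n = 5) in exposed lungs of D0 (log2 FC 1.06, limma adjusted p = 0.00887), and a log2 FC of 0.26 (adjusted p = 0.737) on D28. On D28 none of the 21 was called, and Csf2, a growth factor of macrophages, passed the adjusted p with a log2 FC of 0.47, below the FC limit (limma adjusted p = 0.0330). The Toll-like receptor gene Tlr2, also in this list, had a log2 FC of 0.41 on D28 (limma adjusted p = 0.192). Among 18 transcription factors and inhibitors that act on these genes, Fosl1, a component of AP-1, was called on D0: it was well above background on no control array and on 3 of 5 exposed arrays, at least 1.62-fold higher (limma adjusted p = 0.00105). None of the 18 was called on D28, where Tnfaip3, an inhibitor of NF-kB signalling, had a log2 FC of 0.26 (limma adjusted p = 0.499) and Nfkbiz of 0.23 (adjusted p = 0.675). Of 10 genes of mRNA decay and peptide trimming none was called on either day. The largest values on D0 were 0.76 for the nuclease gene Zc3h12a (limma adjusted p = 0.331) and -0.44 for the protease gene Mmp9 (adjusted p = 0.784). On D28, where both groups had arrays well above background, they were 0.58 for the protease gene Mmp12 (limma adjusted p = 0.454) and 0.40 for Zc3h12a (adjusted p = 0.728). The median log2 FC of these lists on D0 was 0.01 for the inducers, 0.07 for the factors and 0.08 for decay and trimming.

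Markers of leukocytes were read beside these values, with 1.79% of all genes called on D0 and 0.756% on D28. Of 9 monocyte markers Itgam, which macrophages and neutrophils carry too, was called on both days (log2 FC 0.99 and 0.93, limma adjusted p = 0.000123 and 0.0003) and the others, Ccr2 and Csf1r included, were not. The signal summed over the 9 genes overlapped between the groups on both days, from 13.53 to 14.18 in control and from 13.82 to 14.30 in exposed lungs of D0 (log2). Of 10 macrophage markers, Siglec1 and Spp1 were called on D0 (0.89 and 2.20, limma adjusted p = 0.00262 and 0.0199) and Spp1 on D28 (2.13, adjusted p = 0.0332). Cd68 passed the adjusted p on both days below the FC limit (0.55 and 0.42, limma adjusted p = 0.00293 and 0.0294). The signal summed over the 10 genes, on the linear scale, is mostly that of Gpnmb and Cd68, the brightest of them. On D0 this sum did not overlap, with 14.99 to 15.37 in control and 15.61 to 15.93 in exposed lungs. Of all single genes, 1.94% had every exposed lung of D0 above every control lung, and such a share was not determined for sums. On D28 it overlapped, with 14.79 to 15.39 and 15.37 to 15.79. The part of macrophages in the chemokine values was not tested.

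Some markers of eosinophils, the cells that Ccl11 attracts, were lower in exposed lungs. The counts below stand beside 1.79% of all genes called on D0 and 0.756% on D28. Of 7 measured, Ccr3 among them, Rnase3 and Alox15 were called as lower on D0 (log2 FC -1.10 and -1.03, limma adjusted p = 0.00447 and 0.0214) and Rnase3 on D28 (-1.004, adjusted p = 0.0135). Alox15 is made by macrophages and epithelium as well, and Epx, the peroxidase that defines eosinophils, was not well above background on any array. Rnase3, the brightest of the 7, weighs most in their summed signal. This sum was 9.89 to 10.35 in control and 9.37 to 9.54 in exposed lungs of D0, with no overlap. How often such sums of other genes show no overlap was not determined. On D28 it was 9.67 to 10.45 and 9.30 to 10.00. Of 9 neutrophil markers Lcn2, which airway epithelium makes too, was called on D0 (1.65, limma adjusted p = 0.00139) and none on D28, and the summed signal of D0 spanned 14.47 to 15.80 in control and 14.37 to 15.80 in exposed lungs. Of 4 mesothelial markers Wt1 was called as lower on D0 (-0.62, limma adjusted p = 0.0464), and their summed signal on that day was 13.87 to 14.26 in control and 13.67 to 14.00 in exposed lungs. Upk3b (-0.55, limma adjusted p = 0.0316) and Msln (-0.36, adjusted p = 0.0486) passed the adjusted p as lower on D0, below the FC limit. None of the markers of epithelium, mast cells, T cells, B cells, fibroblasts, smooth muscle, endothelium or cardiac muscle was called on either day. Some passed the adjusted p as lower, below the FC limit. These were Aqp5 of epithelium on D0 (-0.47, limma adjusted p = 0.0318) and, on D28, Tek of endothelium (-0.46, 0.0246) and Tnnt2 and Actc1 of cardiac muscle (-0.56, 0.0394 and -0.43, 0.0489). All 6 endothelial, 4 mesothelial and 4 cardiac markers had lower means in exposed lungs on both days. Of these, Nppa of cardiac muscle was not well above background on any array. Whether these cells had a part in the chemokine values was not tested.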

How the data were processed

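Lung RNA of 23 rats was hybridised on single-colour Agilent rat arrays. The authors deposited the scanner output of each array, which holds intensities per spot, and 1 table of all arrays with intensities on the linear scale, quantile normalized (its sorted columns are identical). Per the file headers the processed signal has background removed within each array, with nothing done between arrays. Agilent Feature Extraction was of version 11.0.1.1, or 12.0.1.1 for 1 array. How background is removed weighs most on dim signals such as those of Ccl1, so that 2 other treatments were run.

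The 5 genes and the lists of related genes were chosen from general knowledge with earlier results of these data known. Control spots were left out of 62976 and spots marked as outliers were set missing. The log2 processed signal was used for the 40417 of 45598 probes that exceeded, on 5 or more arrays, the 95th percentile of 308 negative controls. Arrays were quantile normalized, spots averaged per probe and 32415 probes with a symbol averaged to 23029 genes, named by the 1 array file of the later software. A limma model (limma 3.58.1, R 4.3.3) with 4 group means, which share 1 estimate of the spread with 19 residual degrees of freedom, after a check on simulated data, gave log2 FC and Benjamini-Hochberg adjusted p over all genes. Genes were called where this p was below 0.05 and the FC reached 1.5 either way. The batch correction that the methods name has no stated batch and was not repeated. Slides (each scanned on 1 day) were numbered and used as an alternative block and for values within slides. The rats of a group are separate by the labels. The number of arrays limits the precision. A bound was given where no array of a group was well above background, as the mean of the brighter group over the mean of the higher of the dim signal and the lowest signal well above background on each array. The genes named were the 5 members and the 3 genes outside the cluster most like each member by Pearson's r. Of each list, the called genes were named. In a pathway list with none called, its 2 largest changes were named where both groups had arrays well above background. Some further genes of the lists that were not called were named beside these. Further choices were tried as alternatives: 75th percentile scaling, normexp (offset 50), the deposited table, 2 other filters, the brightest probe, the arrays of a day alone, an intensity trend with robust estimation, array weights, slide and replicate blocks, no FC limit, and leaving out each array. Plots and summaries used Python 3.11.15 with pandas 2.3.3 and matplotlib 3.10.9.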

Additional observations from a re-analysis of the deposited data

Results flagged for a closer look

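Ccl12 in exposed replicate 4 of D28 had a signal of 10.25 (log2), far above the next highest lung of its group at 7.84. The gap was 0.770 of the whole range of the group, where 0.625 is the limit for 6 samples. Of 20 groups of values examined, 1 passed such a limit, and chance passes about 1 in 20. The same lung was also the highest of its group for Ccl2 and Ccl7 and not for Ccl1 or Ccl11.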

How the results depend on the processing

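The call of 4 genes on D0 held in all 12 settings other than leaving out an array, and 3 to 4 genes were called without 1 array. On D28, where 1 gene was called, the count was 0 with normexp correction, with the arrays of D28 alone and with array weights, 2 with the filter on probes well above background and 2 with an intensity trend, and 0 to 1 without 1 array. Ccl1 on D28 had a log2 FC of 0.51 with normexp correction, 1.504 with the arrays of D28 alone and 1.42 with array weights, not called in these, and of 1.29 to 1.68 without 1 array. Ccl7 on D28 was called at 1.04 with the filter on probes well above background and at 1.04 with an intensity trend, and its log2 FC was 0.79 to 1.18 without 1 array. Ccl12 on D0 ranged from 1.69 to 2.23 without 1 array.

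Signs that turned were all of values that were not called. With the slide as a block, Ccl11 on D28 was 0.0132 and Ccl1 in control lungs of D28 against D0 was -0.0555. Exposed lungs of D28 against D0 were at 0.0157 for Ccl11 in the deposited table and at -0.128 to 0.00204 without 1 array. Ccl2 in control lungs of D28 against D0 was -0.194 to 0.0982 without 1 array. All causes were not tested.

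Of all genes, 412 were called on D0 and 174 on D28. The counts were 221 and 94 with normexp correction, 42 on D28 with the arrays of that day alone, 659 and 303 with no FC limit, and 111 on D28 without exposed replicate 1 of D28. For the mean of both effects (430 genes) they were 144 with normexp correction, 190 in the deposited table and 1509 with no FC limit. For the difference of the effects (7 genes) they were 14 with normexp correction, 13 with the filter on probes well above background 12 with an intensity trend and 11 without exposed replicate 4 of D28, and for exposed lungs of D28 against D0 (81 genes) 128 with the slide as a block. For control lungs of D28 against D0 (140 genes) they were 90, 93 and 87 without control replicate 1 of D0, control replicate 4 of D0 or control replicate 2 of D28.

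The deviations of same-numbered control and exposed arrays had an r of -0.22 to -0.12 in the 5 pairs of D0 and of -0.17 to 0.46 in the 6 pairs of D28, above 0.1 in 3 of these 6, so the numbers were not taken as pairs. With the replicate number as a block, 4 genes were called on D0 and 1 on D28, with log2 FC of 2.25 for Ccl1, 1.46 for Ccl2, 1.97 for Ccl7, 1.85 for Ccl12 and -0.36 for Ccl11 on D0. Each gene rests on 1 probe, and Ccl1 lay near background in control lungs.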
